A study of Mus musculus with 3 samples.

Results

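Splenocytes that carried Cd209a or Clec10a RNA, the C-type lectin markers of 1 kind of type 2 dendritic cell, were picked out of single-cell RNA-sequencing libraries of mouse spleen. The members were chosen on their own measured counts of unique molecular identifiers (UMIs, 1 per captured RNA molecule). A barcode had to hold over 200 and under 3500 genes, under 15% mitochondrial UMIs, and a top hashtag at least 3 times the second. It had to hold 1 or more UMIs of Cst3 and 2 or more of Cd209a and Clec10a summed, and 0 of the B cell gene Cd79a, the T cell gene Cd3e, Xcr1 of type 1 dendritic cells, Siglech of plasmacytoid dendritic cells and Csf3r of neutrophils. Fewer than 3 summed UMIs of Fscn1, Ccr7 and Cacnb3, which mark mature migratory dendritic cells, were allowed. In all, 105 of 47453 kept barcodes met the rule, or 0.221%.

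The study addressed hypertension and autoimmunity in lupus-prone mice, and its 3 libraries each held splenocytes of 2 conditions, with 3 mice pooled per condition. All mice were 12 to 14 weeks old at harvest, and spleens had been depleted of T cells with CD3 microbeads. The C57BL/6 control library combined sham-treated males with females of that strain. The C57BL/6 Ang II library came from C57BL/6 mice that carried minipumps of angiotensin II (Ang II) for 2 weeks from 10 weeks of age, at a labelled 490 µg/kg/min, with placebo or with 2-hydroxybenzylamine (2-HOBA). The B6.SLE123 library came from mice of a C57BL/6-derived strain that carries the lupus susceptibility intervals Sle1, Sle2 and Sle3, given placebo or 2-HOBA for 6 weeks from 7 weeks of age. The hashtags, antibody barcodes C0301 to C0306, were named for no condition or mouse, so 2-HOBA was not analysed here and each library stood as 1 sample. The study describes its B6.SLE123 mice for single-cell sequencing as female, and the title of the Ang II library names no sex. No difference between libraries therefore has a replicate check, and strain, treatment or sex cannot be told apart from the library. Every interval given is a 95% interval that covers counting error only.

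Conventional dendritic cells take up antigen, load its peptides on MHC class II and show them to T cells. The type 2 kind is specialised for CD4 T cells and, in the mouse spleen, falls into cells that carry Clec4a4 and Esam and depend on Notch signals, and cells that carry Cd209a and Clec10a and share more genes with monocytes. Cd209a is a mouse relative of the lectin DC-SIGN, which binds sugars on microbes, and Clec10a binds galactose-type sugars. Monocytes that enter tissue can also switch on Cd209a, so the pair of markers does not by itself separate dendritic cells from cells of monocyte origin.

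Kept barcodes numbered 15957 for control, 13982 for Ang II and 17514 for B6.SLE123, with medians of 1792, 2771 and 1956 UMIs. Members were deeper, with medians of 5007, 8201 and 3131 UMIs in the same order, and summed to 187719, 198861 and 158564 UMIs. The highest mitochondrial share in any member was 3.89%. Between 320 and 367 kept barcodes occurred in both libraries of a pair, and none of these was a member in both. B cells, defined by Cd79a and no Cst3, served as a background class and had median depths of 1706, 2628.5 and 1830.5 UMIs. A Cd209a UMI was seen in 0.118%, 0.169% and 0.110% of them.

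Members made up 0.244% of kept barcodes for control (39 cells, 0.174 to 0.334), 0.179% for Ang II (25 cells, 0.116 to 0.264) and 0.234% for B6.SLE123 (41 cells, 0.168 to 0.317). The 3 intervals overlapped. The log2 ratio of the share to control was -0.06 in B6.SLE123 (-0.73 to 0.61) and -0.45 in Ang II (-1.24 to 0.31), and both intervals included 0. Among the 6 hashtag populations, which were unassigned, the share ran from 0.105% to 0.369% for control with a median of 0.212%, from 0.0839% to 0.265% for Ang II with a median of 0.189%, and from 0.0904% to 0.485% for B6.SLE123 with a median of 0.221%. The spread within each library thus exceeded the differences between the libraries. A rule that needs UMIs finds more cells where depth is greater. With every barcode thinned to 2000 UMIs and shallower ones left out, 6311, 11188 and 8517 barcodes remained for control, Ang II and B6.SLE123. Members among these numbered 25, 19 and 36. The member percent of kept barcodes, C57BL/6 Ang II, was 0.170, against 0.396 for control and 0.423 for B6.SLE123. The log2 ratio for Ang II was then -1.22 (-2.16 to -0.30). Shallow barcodes were lost unequally between the libraries, which changes what the share is taken of. This ratio is therefore not a correction for depth alone, and no difference in share is read from it.

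**Figure D1:**
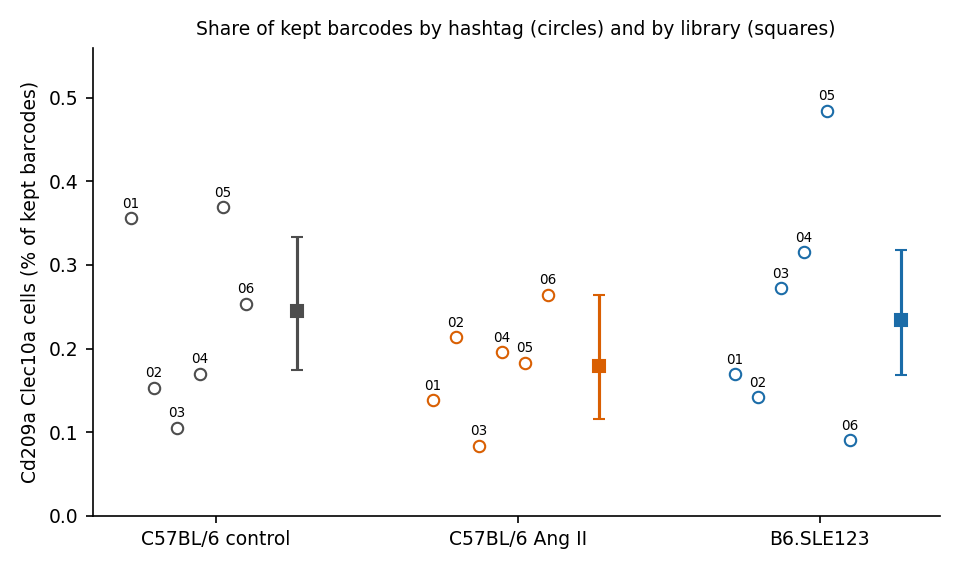
Share of kept barcodes that were members, in percent, for the 3 libraries. Large points are the whole library with exact 95% intervals, and small points are its 6 hashtag populations, which are named for no condition. The library intervals overlap, and the small points run from 0.0839% to 0.485%.

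Cd209a (chr8:3743397-3748984, mm10) chose nearly all members. It had 274 UMIs in the control library, 232 in Ang II and 237 in B6.SLE123, with 5, 7 and 4 UMIs in the median member and up to 39 in 1 cell. Clec10a (chr11:70156197-70170834) had 37, 26 and 33 UMIs and at most 8 in a cell. Both lectins were seen together in 39 members, Cd209a alone in 62 and Clec10a alone in 4. These values follow from the rule. Just inside its limit, 15 members held exactly 2 marker UMIs, and just outside it 71 barcodes held 1 (24, 14 and 33 by library). The cells with 1 marker UMI had less of the MHC class II chain H2-Aa and more of the monocyte lysozyme gene Lyz2 than members with 3 or more. H2-Aa stood at 3607, 5921 and 3407 CPM (UMIs of the gene per 1000000 UMIs of those cells) against 8700, 10312 and 10825 CPM. Lyz2 stood at 15467, 10711 and 14555 CPM against 8742, 3537 and 2673 CPM.

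The label fitted only some of the members. H2-Aa and Lyz2 were distributed unevenly, and 75 of 105 members (71.4%) held more H2-Aa than Lyz2 UMIs while the other 30 did not. This division was drawn after the values had been seen and is a cut along a range, with 9 cells within 2-fold of it. In the control library H2-Aa per cell ran from 0 to 22785 CPM with a median of 8832, in Ang II from 0 to 24652 with a median of 10730, and in B6.SLE123 from 0 to 18704 with a median of 11012. Lyz2 per cell ran from 0 to 34229, 37671 and 33213 CPM with medians of 1894, 103 and 718. Most cells thus stood high in 1 of the 2 genes, and 13 members had no H2-Aa UMI. H2-Aa UMIs were found in 98.2%, 97.7% and 98.1% of B cells, which express it, whereas Lyz2, which B cells do not make, was found in 3.38%, 4.53% and 3.40% of them and in 76.9%, 52.0% and 70.7% of members.

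**Figure D2:**
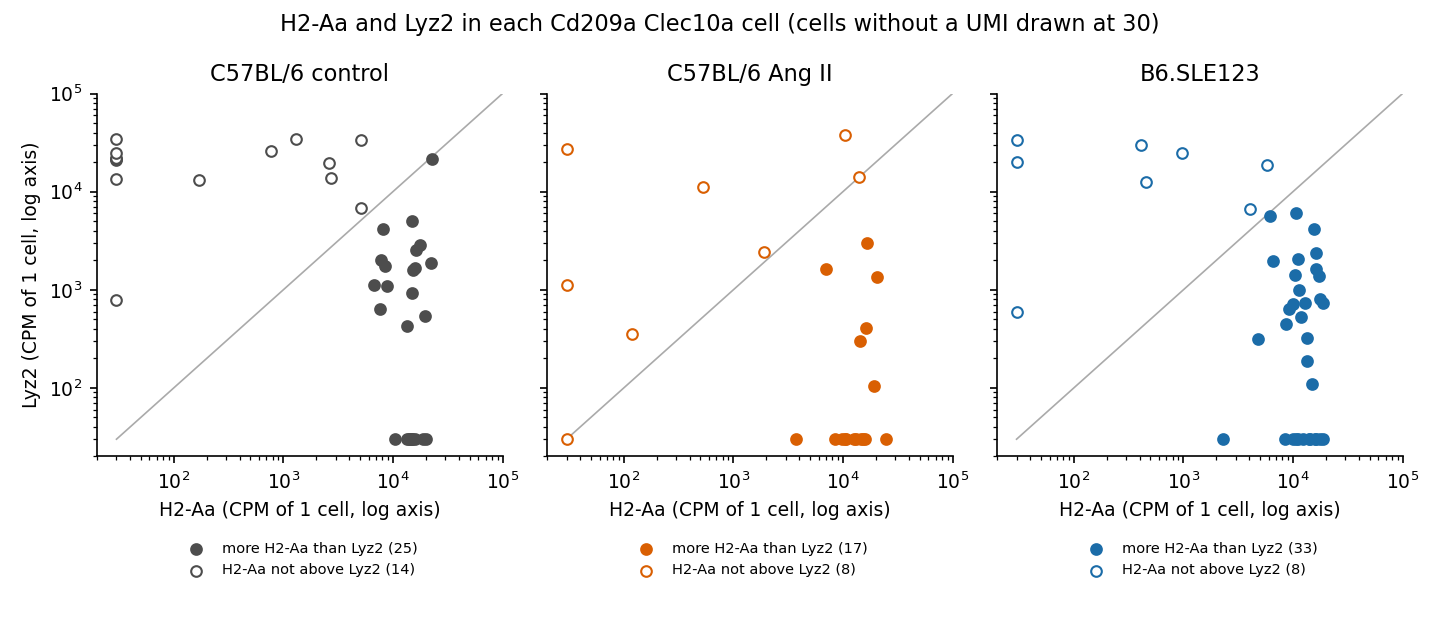
H2-Aa (x axis) against Lyz2 (y axis) in each member, in CPM of 1 cell on log axes, 1 panel per library. Cells without a UMI are drawn at 30 and the line marks equal levels. The 75 filled points hold more H2-Aa than Lyz2 UMIs, and the 30 open points do not.

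Members with more H2-Aa than Lyz2, called H2-Aa-led below, numbered 25 of 39 in the control library, 17 of 25 in Ang II and 33 of 41 in B6.SLE123. This was 64.1% (47.2 to 78.8), 68.0% (46.5 to 85.1) and 80.5% (65.1 to 91.2), with overlapping intervals. As a share of kept barcodes they made up 0.157%, 0.122% and 0.188%, and the other members 0.0877%, 0.0572% and 0.0457%. Both lectins were present together in 26 of the 75 H2-Aa-led members and in 13 of the other 30.

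The H2-Aa-led members held more RNA of MHC class II presentation and of several single genes of conventional dendritic cells. H2-Aa made the division and is itself a class II gene, so the higher class II RNA follows in part from the division. Dendritic cell lists varied. The Cd209a type 2 list, which holds the rule's Cd209a and Clec10a, summed to 6154, 5333 and 6023 CPM in H2-Aa-led members. In the others it summed to 3196, 4167 and 3822 CPM, in the order control, Ang II and B6.SLE123, which is kept below. The Clec4a4 type 2 and migratory lists were also higher in H2-Aa-led members of each library. The type 1, plasmacytoid and common dendritic cell lists had no single direction. The common list, which holds the rule's Cst3, summed to 7459, 4827 and 6762 CPM in H2-Aa-led members and to 7002, 5129 and 6390 CPM in the others. The list of transcription factors of dendritic cells and monocytes summed to less in H2-Aa-led members, at 2448, 2470 and 2868 CPM against 3100, 3505 and 3486 CPM. Of single genes, Flt3, the receptor for the growth factor that dendritic cells need, stood at 230, 181 and 159 CPM in H2-Aa-led members. In the other members it stood at 95.7, 150 and 30.6 CPM. Zbtb46, a transcription factor of conventional dendritic cells, was seen in 25 H2-Aa-led and 1 other member, Itgax (the integrin CD11c) in 43 and 1, and Kit in 22 and 0. Of the 14 genes of MHC class II presentation, Cd74, the invariant chain, stood at 40234, 43042 and 38265 CPM in H2-Aa-led members against 6774, 12681 and 7216 CPM in the others. H2-DMb2, a subunit of the peptide exchange factor of class II, had 115 UMIs in H2-Aa-led members and 0 in the others, and H2-Oa, which restrains that exchange, had 135 and 2. The activation gene Bcl2a1b had 87 and 0 UMIs, the cytokine Ltb 123 and 2, the chemokine Ccl5 74 and 1, and the signalling adaptor Traf1 67 and 2. Klrd1, a lectin first known from natural killer cells that this kind of dendritic cell also expresses, was seen in 48 H2-Aa-led members and 7 others. Cd7 was seen in 55 and 6.

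The other 30 members held more RNA of classical monocyte genes, a list that summed to 28748, 16983 and 27854 CPM in them and to 4262, 1609 and 3003 CPM in H2-Aa-led members. Lyz2 stood at 20394, 12229 and 18223 CPM in them, against 1805, 340 and 1041 CPM in H2-Aa-led members, where 43 of 75 cells still held a UMI. Lyz2 is on this list and made the division, so the list sums follow in large part from the division. Ly6c2, the surface protein that marks classical monocytes, was seen in 27 of the 30 and in 16 of the 75, 12 of these 16 in B6.SLE123. Haptoglobin (Hp) was seen in 20 of the 30 and in 0 of the 75. Cebpb, a transcription factor of monocytes, had 111 UMIs in the 30 and 6 in the 75, the coagulation factor gene F13a1 150 and 21, and fibronectin (Fn1) 192 and 40. The low-affinity IgG receptor Fcgr3 was seen in 21 of the 30 and 1 of the 75. Each of these named genes had the same direction in all 3 libraries. Because they separate along the gene pair that made the division, no test was made of them.

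Some genes of the Cd209a type 2 dendritic cell list spanned both sorts of member. Tmem176b, a membrane protein of antigen-presenting cells, was seen in 70 of the 75 and 24 of the 30, and stood at 911, 1036 and 1173 CPM over all members. Ccr2, the receptor that brings monocytes out of the bone marrow, was seen in 32 of the 75 and 26 of the 30, at 278, 121 and 167 CPM in H2-Aa-led members and 491, 572 and 795 CPM in the others. Clec4a1, a lectin, was seen in 34 and 17. Among genes that are not on that list, Csf1r, the receptor for macrophage colony-stimulating factor, was seen in 37 and 26, and the transcription factor Zeb2 in 43 and 28. Spi1, the master regulator PU.1 of myeloid cells and also not on that list, stood at 591, 573 and 561 CPM, close to equal in the 3 libraries. Several genes of the Cd209a type 2 list were barely seen. The lectin Mgl2 had 2, 3 and 0 UMIs, Cd36 1, 0 and 0, and Fcrls 0 in every library. Irf4, a transcription factor of type 2 dendritic cells, had 7, 14 and 10 UMIs. Of the lectins encoded beside Cd209a, Cd209c had 14, 12 and 13 UMIs and Cd209d 4, 34 and 8. The interleukin genes Il12b, Il6, Il10 and Il23a had 0 UMIs in all 105 members, and Il1b had 16, 18 and 19.

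Genes of other cell types were low. Hemoglobin and platelet genes had 0 UMIs over all 10 listed genes, and of 10 T cell genes Cd5 had 2 UMIs and the rest 0. Cd79b was seen in 6, 8 and 3 members and Ms4a1 in 0, 0 and 1. The neutrophil genes summed to 5, 23 and 16 UMIs. S100a9 was seen in 2.56%, 40.0% and 17.1% of members, and in 4.61%, 23.8% and 11.2% of the shallower B cells, which do not make it. The cell cycle gene Mki67 was seen in 3 members and Top2a in none. Gzma had 23 UMIs in 3 B6.SLE123 members and 0 elsewhere. The part of such RNA in the results below was not tested.

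The members were set beside 3 like classes chosen on the same counts. Cells with 2 or more Clec4a4 UMIs and no Cd209a or Clec10a numbered 7, 9 and 7 in the 3 libraries, and cells with Xcr1 numbered 30, 29 and 70. Monocyte-type cells (Ccr2 Ly6c2 cells in the plot of levels), with Ly6c2, Lyz2 and Ccr2 and few S100a8 and S100a9 UMIs, numbered 78, 24 and 86. H2-Aa in H2-Aa-led members (13238, 13642 and 12482 CPM) was near that of Clec4a4 cells (11518, 8977 and 11327 CPM) and Xcr1 cells (12771, 12106 and 13617 CPM), while monocyte-type cells had 205, 172 and 495 CPM. Cd7 stood at 566, 944 and 914 CPM in H2-Aa-led members and 1039, 840 and 1057 CPM in Clec4a4 cells, and at no more than 15.7 CPM in Xcr1 and monocyte-type cells. Ccr2 and Lyz2 had 0 UMIs in the 23 Clec4a4 cells. Cst3, the protease inhibitor cystatin C, stood at 4352, 2338 and 3784 CPM in members, between 1040 and 1966 CPM in Clec4a4 cells and between 31420 and 36396 CPM in Xcr1 cells. Irf8, which type 1 dendritic cells depend on, stood at 95.9, 101 and 177 CPM in members against 945, 1095 and 1064 CPM in Xcr1 cells.

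**Figure D3:**
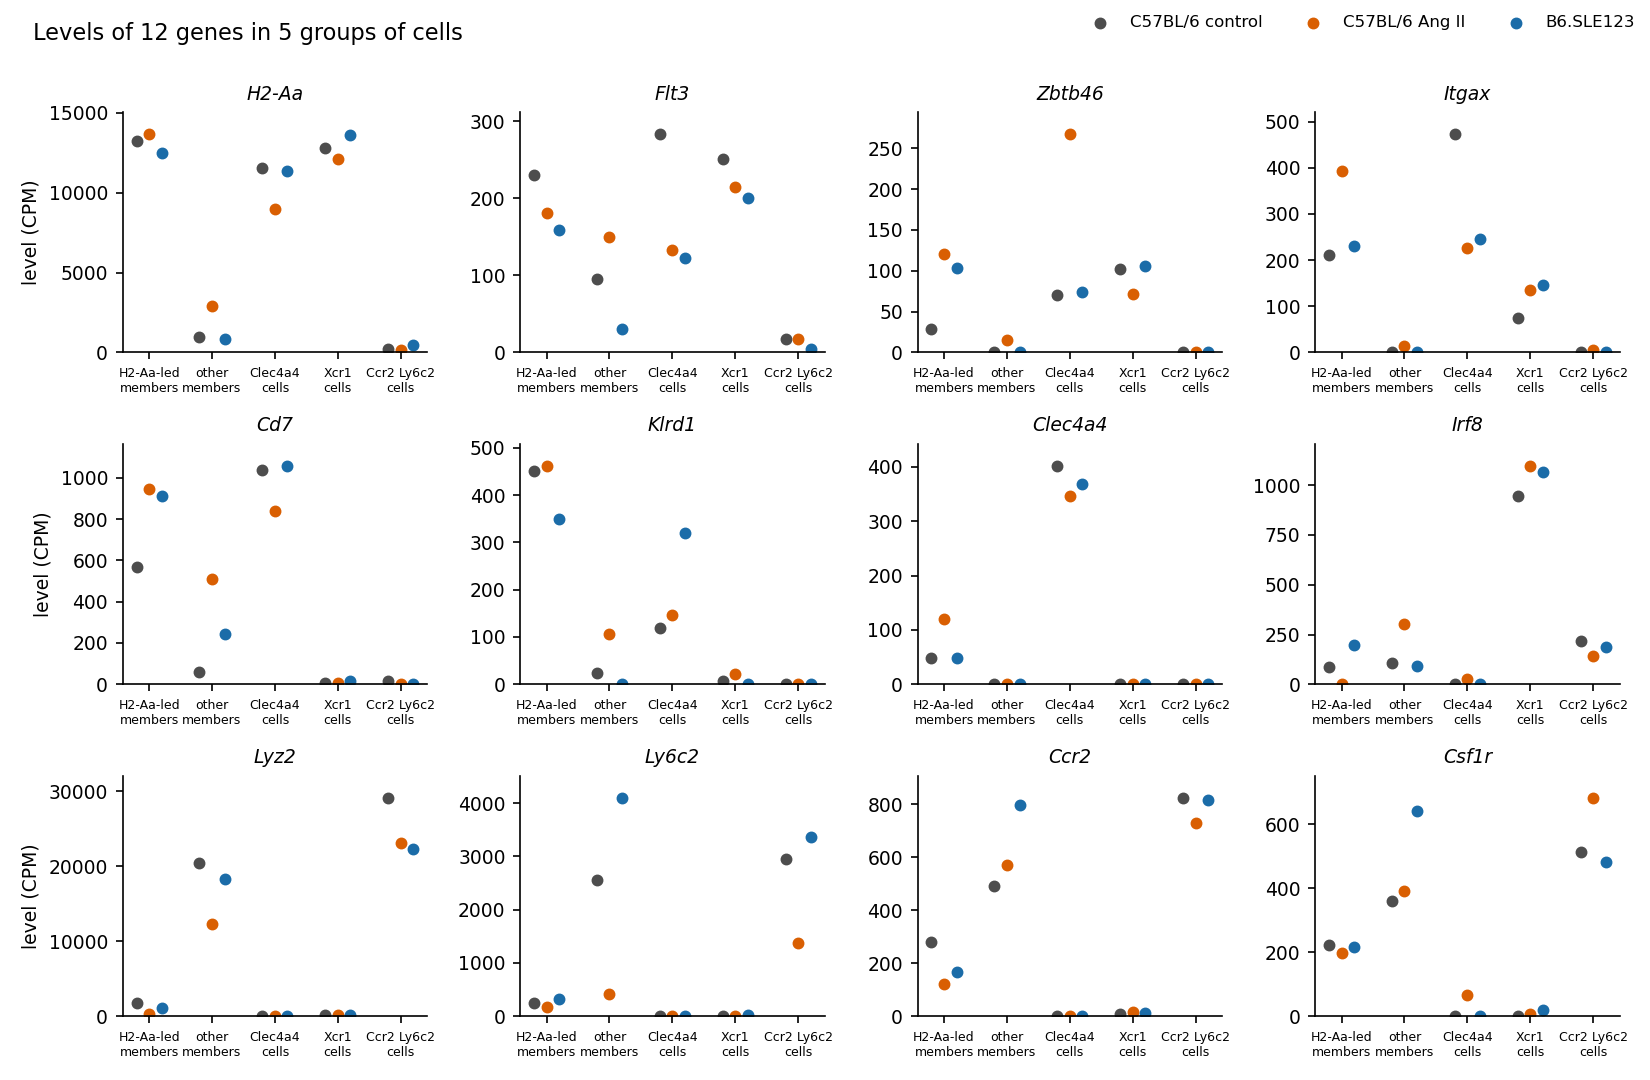
Levels of 12 genes in CPM, each panel on its own linear axis from 0, in H2-Aa-led members, the other members and the 3 like classes, 1 point per library. Lyz2 and Ccr2 are at 0 in Clec4a4 cells, and H2-Aa is lowest in the monocyte-type cells.

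Against Clec4a4 cells, pooled over libraries and with 1 direction in all 3, H2-Aa-led members were highest for monocyte-shared genes. Lyz2 had 364 UMIs against 0, a log2 ratio of at least 5.73. Ahnak, a large scaffold protein, had 246 against 0 (at least 5.16), and Ccr2 had 66 against 0 (at least 3.26). Clec4a3, a lectin of myeloid cells, had a log2 ratio of 4.53, the actin-associated gene Crip1 4.37 and Zeb2 3.05. Clec4a4 cells held more RNA of genes of dividing cells and of Dtx1. Ube2c, which acts in mitosis, had 1 UMI in H2-Aa-led members and 140 in Clec4a4 cells (log2 ratio -8.33, -13.64 to -5.82), Top2a 0 and 63, Mki67 2 and 56, and the Notch target Dtx1 6 and 46 (log2 ratio -4.14). The classes were cut from these counts, so the values are a description.

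The comparison of the B6.SLE123 with the control library asked how these cells differ in lupus-prone mice. Interferon-response genes and Ifitm2 were higher in B6.SLE123 members, and Hpgd, Trf, Slamf7 and several monocyte genes were lower. Genes with 50 or more UMIs over both libraries were read, 958 in all. Of these, 17 (1.77%) had a log2 ratio of 1 or more and 28 (2.92%) of -1 or less, and the median over all was -0.01. In H2-Aa-led members 576 genes could be read, of which 18 (3.12%) were 2-fold or more higher and 13 (2.26%) 2-fold or more lower.

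Ifitm2, an interferon-induced membrane protein that restricts virus entry (chr7:140954837-140955987), had 286 UMIs in the control library and 540 in B6.SLE123, or 1524 and 3406 CPM. It was seen in 33 of 39 control members and in all 41 B6.SLE123 members. By hashtag population the level ran from 902 to 1737 CPM in the control library and from 2665 to 4073 CPM in B6.SLE123, so the populations did not overlap. The log2 ratio was 1.16 (0.95 to 1.37), and 1.44 in H2-Aa-led members. Ifitm2 was higher in B6.SLE123 in the other classes too. It stood at 307 and 3317 CPM in Clec4a4 cells of the control and B6.SLE123 libraries, at 88.4 and 2760 CPM in Xcr1 cells, and at 8.09 and 3705 CPM in B cells, where 0.904% of cells held a UMI in the control library and 95.2% in B6.SLE123. In monocyte-type cells it stood at 2090 and 3835 CPM. In control members Ifitm2 thus stood between the level of monocyte-type cells and that of the other dendritic cell classes. The related Ifitm3 stood at 5284 and 5222 CPM in members, and Ifitm6 was lower in B6.SLE123, at 607 and 277 CPM (log2 ratio -1.13).

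Of the 20 listed interferon-response genes 4 could be read. Ifi27l2a had 177 UMIs in the control library and 375 in B6.SLE123, or 943 and 2365 CPM. Its log2 ratio was 1.33 (1.06 to 1.59), and 1.51 in H2-Aa-led members, while the hashtag populations ran from 435 to 1337 CPM and from 1196 to 3279 CPM and overlapped. Isg15, a ubiquitin-like modifier, stood at 112 and 233 CPM (log2 ratio 1.06), and Bst2, which tethers budding virus, at 330 and 536 CPM. So 2 of the 4 were 2-fold or more higher and none lower, with a median log2 ratio of 0.88. The whole list summed to 2280 CPM in control and 4364 CPM in B6.SLE123 members (log2 ratio 0.94, 0.76 to 1.11). In H2-Aa-led members it went from 167 to 473 UMIs (log2 ratio 1.23, 0.97 to 1.49). Ifi27l2a alone held 177 of the list's 428 UMIs in control and 375 of 692 in B6.SLE123 members. In H2-Aa-led members Ifi27l2a held 68 of the 167 and 234 of the 473 UMIs. Below the limit for reading, the master regulator Irf7 had 14 UMIs in control and 35 in B6.SLE123, and Ly6a 1 and 20. In monocyte-type cells Ifi27l2a stood at 2538 and 3771 CPM, and in B cells at 590 and 768 CPM.

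Hpgd, the enzyme that inactivates prostaglandins (chr8:56294585-56321043), had 58 UMIs in 13 control members and 1 UMI in 1 B6.SLE123 member. This was 309 and 6.31 CPM, a log2 ratio of -5.61 (-10.94 to -3.08). H2-Aa-led members held 26 and 1 of these UMIs (log2 ratio -4.97). In the Ang II library 7 members held 28 UMIs. By hashtag population the control level ran from 0 to 806 CPM and that of B6.SLE123 from 0 to 37.1 CPM, and 5 of the 6 B6.SLE123 populations were at 0. Monocyte-type cells had 194, 189 and 0 CPM in the order control, Ang II and B6.SLE123, and Clec4a4 cells 0 in each. Trf, which encodes transferrin, had 64 UMIs in control and 14 in B6.SLE123 (log2 ratio -1.95, -2.90 to -1.10), and -3.50 in H2-Aa-led members. In monocyte-type cells Trf stood at 265 and 314 CPM, with no lower level in B6.SLE123. Hpgd and Trf were the 2 genes read on the red pulp macrophage list. Of the 14 genes on that list, 5 were at 0 UMIs in all members, among them C1qa and C1qb, and C1qc had 1. The whole list had 146 UMIs in control and 23 in B6.SLE123.

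Slamf7, a self-binding receptor of the signalling lymphocytic activation family (chr1:171632403-171653035), had 74 UMIs in control and 26 in B6.SLE123, or 394 and 164 CPM. It was seen in 31 of 39 and in 14 of 41 members. The log2 ratio was -1.27 (-1.97 to -0.60) in members and also -1.27 in H2-Aa-led members. The control level ran from 91.4 to 902 CPM over hashtag populations and the B6.SLE123 level from 58.0 to 435 CPM, with overlap. Slamf7 stood at 401 and 98.3 CPM in Clec4a4 cells and 442 and 161 CPM in Xcr1 cells of the same libraries, and was low in monocyte-type cells, at 22.8 and 12.3 CPM.

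Ferritin light chain reads were divided between 2 near-identical genes. Ftl1 (chr7:45457944-45459884) had 515 UMIs in control and 159 in B6.SLE123, and Ftl1-ps1 (chr13:74399694-74407346) had 2 and 152. Their log2 ratios were -1.45 (-1.72 to -1.19) and 6.49 (4.61 to 9.55). Summed, the pair had 517 and 311 UMIs, a log2 ratio of -0.49 (-0.70 to -0.28). Ftl1-ps1 was high in B6.SLE123 in every class, with 18.1 CPM in control and 361 CPM in B6.SLE123 B cells and 91.1 and 1720 CPM in monocyte-type cells, so the values of either gene alone are uncertain.

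Among the other named genes, Fh1, the fumarase of the citric acid cycle (chr1:175600374-175625635), had 14 UMIs in control and 52 in B6.SLE123 (log2 ratio 2.14, 1.26 to 3.10), and 1.90 in H2-Aa-led members. Its hashtag populations did not overlap, at 0 to 122 CPM and 160 to 846 CPM. The malate dehydrogenase gene Mdh2 had 40 and 95 UMIs, with 27 of the 95 in 1 cell (log2 ratio 1.49). Ddit4, an inhibitor of mTOR signalling, had 34 and 76 (1.40). Bcl11a had 17 and 34 (1.24), the tubulin gene Tubb5 25 and 48 (1.18), Lsm12 17 and 33 (1.20) and the co-chaperone Ptges3 19 and 36 (1.17). The ribosomal repeat transcript AY036118 had 266 and 560 (1.32). Cd7, which was high in H2-Aa-led members and Clec4a4 cells and low in Xcr1 cells, had 64 and 123 UMIs, with a log2 ratio of 1.19 (0.74 to 1.65) over all members and 0.69 in H2-Aa-led members. Leaving out single hashtag populations took 7 of the 12 higher genes under 2-fold, including AY036118 at 0.51 without C0304 and Cd7 at 0.86 without C0302 of B6.SLE123. None changed direction. Among the lower genes, the noncoding RNA Gas5 had 111 and 36 UMIs (log2 ratio -1.38) and the iron-sulfur assembly gene Ciao2a 41 and 12 (-1.53), in each case with hashtag populations that did not overlap. The acid ceramidase Asah1 had 48 and 14 (-1.53), the cytoskeletal gene Add3 44 and 15 (-1.31) and BC028528 43 and 15 (-1.28).

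**Figure D4:**
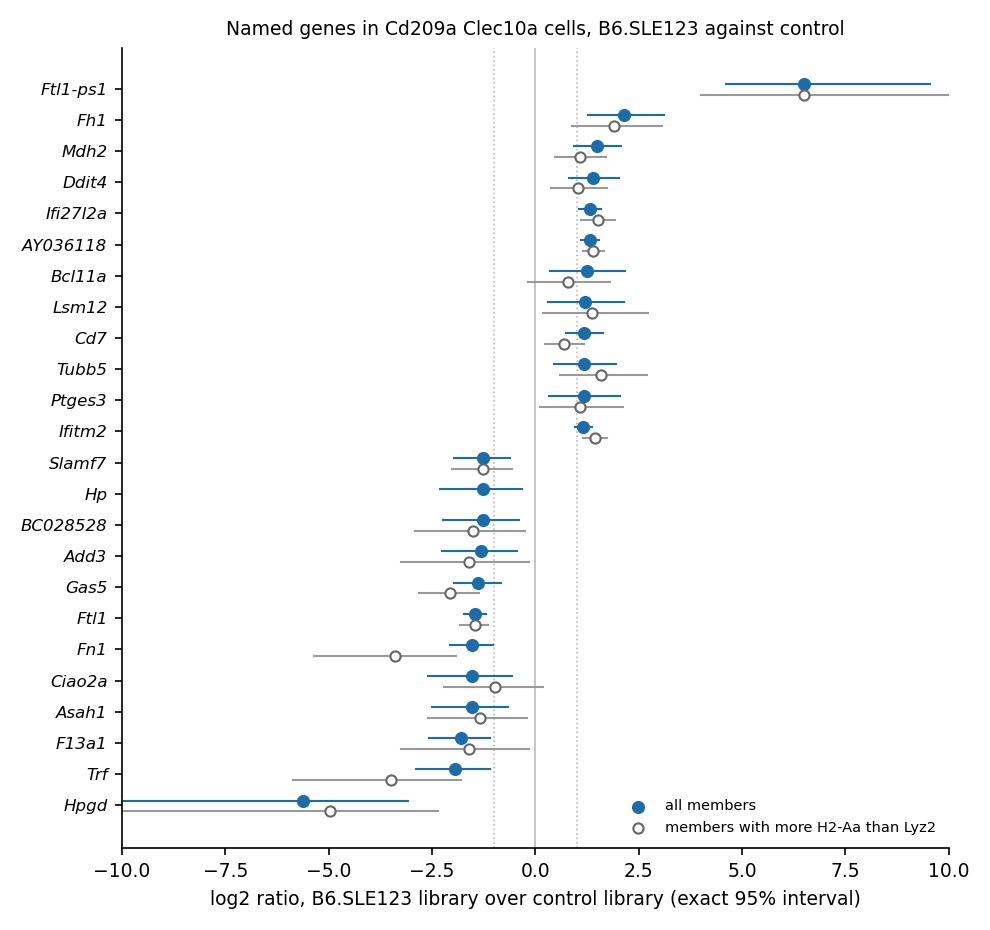
Log2 ratio of B6.SLE123 to control for the 24 named genes, in all members (filled, with 95% intervals cut at the edges of the plot) and in H2-Aa-led members (open). Hp has no open point because it had 0 UMIs in H2-Aa-led members of both libraries. Ftl1-ps1 lies at 6.49 and Hpgd at -5.61, and the other genes lie between -1.95 and 2.14.

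Several monocyte genes were lower in B6.SLE123 members, of whom 8 of 41 were not H2-Aa-led, against 14 of 39 in the control library. Of 10 classical monocyte genes that could be read, 4 were 2-fold or more lower and none higher, with a median log2 ratio of -0.68. F13a1 had 87 and 21 UMIs (-1.81, -2.57 to -1.11), Fn1 140 and 41 (-1.53, -2.07 to -1.02), Hp 37 and 13 (-1.27) and Lyz2 1892 and 727 (-1.14). Ly6c2, also on the list, stood at 1279 CPM in control and 1104 CPM in B6.SLE123 members. It was higher in B6.SLE123 in H2-Aa-led members (250 and 326 CPM) and in the others (2561 and 4097 CPM). Single cells held up to 86 of its UMIs in control and up to 70 in B6.SLE123. Among H2-Aa-led members 6 of the list could be read and none was past 2-fold, and the whole list summed to 4262 CPM in control and 3003 CPM in B6.SLE123 (log2 ratio -0.51, -0.71 to -0.30). Fn1, with 35 and 4 UMIs there, was below the limit for reading. MHC class II genes summed to 48930 CPM in control and 60291 CPM in B6.SLE123 members (log2 ratio 0.30, 0.26 to 0.34), with 0 of 11 past 2-fold, and the log2 ratio among H2-Aa-led members was -0.09 (-0.13 to -0.04). The direction of the class II sum therefore turned with the choice of members.

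The other lists ranged widely in their sums. Some hold genes of the rule: Cd209a and Clec10a in the Cd209a type 2 and C-type lectin lists, and Cst3 in the common dendritic cell list. Their sums thus follow in part from the rule. The Cd209a type 2 dendritic cell list had 1 of 9 genes past 2-fold higher, Cd7, with a median of 0.08 and a summed log2 ratio of 0.20. The common dendritic cell list had 0 of 5 past 2-fold and a summed log2 ratio of -0.12, MHC class I 0 of 11 and -0.04, C-type lectins 0 of 5 and 0.04, and phagocyte oxidase and antioxidant genes 0 of 10 and -0.09. Ncf1, a subunit of the oxidase, had 30 and 5 UMIs. Of 9 immediate early genes Nfkbia, the inhibitor of NF-κB, was past 2-fold, at 282 and 624 CPM. Chemokine genes summed to 1678 and 940 CPM (log2 ratio -0.84), mostly through Ccl6. Lists with few UMIs had large ratios. Genes of natural killer cells had 14 and 62 UMIs (log2 ratio 2.39, 1.54 to 3.34), 23 of the 62 Gzma in 3 cells, and neutrophil genes 5 and 16 (1.92, 0.41 to 3.72). The migratory dendritic cell list had 46 and 72 UMIs (0.89, 0.34 to 1.46) and the plasmacytoid dendritic cell list 93 and 132 (0.75, 0.36 to 1.15).

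The intervals Sle1, Sle2 and Sle3 lie on chromosomes 1, 4 and 7. Of the 45 genes past 2-fold in B6.SLE123 members 11 (24.4%) lay on these chromosomes, against 204 of the 958 genes read (21.3%). On chromosome 1 they were Creg1, Fh1, Fn1, Gas5 and Slamf7, on chromosome 4 Isg15 and Mier1, and on chromosome 7 Etfb, Ftl1, Ifitm2 and Ifitm6. The bounds of the intervals were not used here.

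The comparison of the Ang II with the control library asked how these cells differ in mice given Ang II. Traf1, Gpr183, Bcl2a1b and H2-DMb2 were higher in Ang II members, and Ly6c2, Ccl6, Fn1 and other monocyte genes were lower. Of 1057 genes read, 22 (2.08%) were 2-fold or more higher and 44 (4.16%) 2-fold or more lower, and the median over all was -0.12. With the ribosomal repeat transcripts Gm42418 and AY036118 left out of the total, 26 of 1055 genes were higher and 38 lower, with a median of -0.07. In H2-Aa-led members 568 genes were read, of which 13 (2.29%) were higher and 21 (3.70%) lower. Both comparisons used the same control members, so their values are not independent.

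Traf1, an adaptor of tumour necrosis factor receptors (chr2:34941750-34961772), had 6 UMIs in 4 control members and 46 in 14 Ang II members, or 32.0 and 231 CPM. The log2 ratio was 2.86 (1.62 to 4.37), and 2.56 in H2-Aa-led members. Over hashtag populations it ran from 0 to 301 CPM in the control library and from 0 to 591 CPM in Ang II, with overlap. Traf1 stood at 236 and 307 CPM in Clec4a4 cells and 74.8 and 64.4 CPM in Xcr1 cells. Gpr183, the oxysterol receptor that places type 2 dendritic cells in the spleen, had 11 and 40 UMIs (log2 ratio 1.78, 0.79 to 2.89), and 1.71 in H2-Aa-led members. Its populations did not overlap, at 0 to 94.1 CPM in control and 118 to 318 CPM in Ang II. The survival gene Bcl2a1b had 15 and 52 UMIs (1.71), H2-DMb2 20 and 62 (1.55), Ltb 27 and 70 (1.29) and Cfp, the complement factor properdin, 26 and 69 (1.32). Their log2 ratios in H2-Aa-led members were 1.45, 1.29, 1.06 and 1.71. Of the 70 Ltb UMIs in Ang II, 24 lay in 1 cell. The most in 1 cell were 14 of the 62 H2-DMb2 UMIs and 10 of the 52 Bcl2a1b UMIs. Over hashtag populations Bcl2a1b ran from 0 to 203 CPM in control and from 0 to 520 CPM in Ang II. H2-DMb2 ran from 0 to 203 CPM and from 0 to 468 CPM, so both overlapped.

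Cd7 had 64 and 159 UMIs (log2 ratio 1.23, 0.80 to 1.67) but 0.74 in H2-Aa-led members. Ddit4 had 34 and 87 UMIs (1.27), Tubb5 25 and 67 (1.34) and the kinase gene Bmp2k 13 and 39 (1.50). Gm42418, a transcript that overlaps a ribosomal RNA repeat, had 2769 and 10172 UMIs (1.79), with 2391 of the 10172 in 1 cell. It was also higher in B cells, at 21688 and 33115 CPM. Nfkbia stood at 282 and 634 CPM. Genes of the common dendritic cell list that were past 2-fold higher were Traf1, Itgax and Ccnd1, and Plac8 was lower, of 9 read. The sum of that list went the other way (log2 ratio -0.56). Cst3, which the rule requires, held 817 of the list's 1362 UMIs in control and 465 of 980 in Ang II members.

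**Figure D5:**
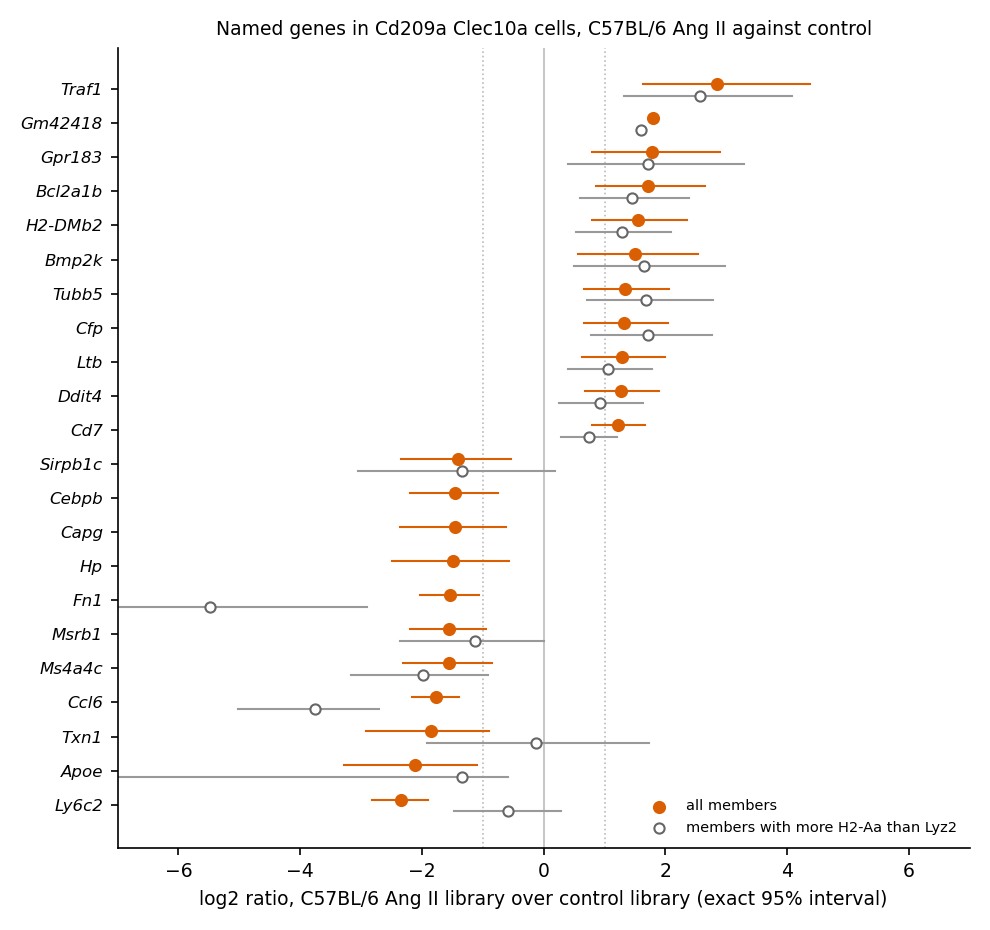
Log2 ratio of Ang II to control for 22 named genes, in all members (filled, with 95% intervals cut at the edges of the plot) and in H2-Aa-led members (open). Hp, Capg and Cebpb have no open point, with at most 3 UMIs in H2-Aa-led members of either library, and the open point of Apoe is a bound. Among filled points Traf1 is highest at 2.86 and Ly6c2 lowest at -2.35.

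Ly6c2 had 240 UMIs in control and 50 in Ang II members, or 1279 and 251 CPM (log2 ratio -2.35, -2.82 to -1.90). It was seen in 15 of 39 and 9 of 25 members, so the level differed more than the share of cells. Of the 240 control UMIs, 86 lay in 1 cell. In H2-Aa-led members Ly6c2 had 26 and 22 UMIs (-0.59). All 26 lay in 1 control cell and 15 of the 22 in 1 Ang II cell, so this ratio rests on few cells. Over hashtag populations it ran from 0 to 2986 CPM in the control library and from 23.6 to 780 CPM in Ang II. In monocyte-type cells Ly6c2 stood at 2951 and 1369 CPM, also lower in Ang II. Of 10 classical monocyte genes read, 6 were 2-fold or more lower and none higher (median log2 ratio -1.31). Fn1 had 140 and 51 UMIs (-1.54), Ms4a4c 64 and 23 (-1.56), Hp 37 and 14 (-1.49), Sirpb1c 40 and 16 (-1.41) and Lyz2 1892 and 858 (-1.22). The list summed to 15161 and 6748 CPM (log2 ratio -1.17, -1.26 to -1.07), and in H2-Aa-led members to 4262 and 1609 CPM (-1.41, -1.65 to -1.17). Cells with H2-Aa at or below Lyz2 were 14 of 39 and 8 of 25.

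The chemokine Ccl6 had 245 and 76 UMIs (log2 ratio -1.77, -2.16 to -1.40), and 85 and 8 in H2-Aa-led members (-3.76). Ccl6 was thus lower among the H2-Aa-led cells by themselves. Fn1 had 35 and 1 UMIs there (-5.48, -10.82 to -2.90), below the limit for reading. Apoe had 41 and 10 UMIs, with 9 of the 10 in 1 cell (-2.12). The methionine sulfoxide reductase Msrb1 had 86 and 31 (-1.56), the actin-capping gene Capg 44 and 17 (-1.46) and Cebpb 62 and 24 (-1.45). Thioredoxin (Txn1) had 41 and 12 UMIs (-1.86) but a log2 ratio of -0.12 in H2-Aa-led members. Leaving out single hashtag populations took Capg to -0.80 without C0305 of control, Cd7 to 0.90 without C0302 of Ang II and Ltb to 0.99 without C0304 of Ang II.

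The interferon-response list summed to 2280 and 1664 CPM (log2 ratio -0.45, -0.67 to -0.24). Among Ifitm and Ifi200 genes 2 of 6 were past 2-fold lower, Ifitm3 at 5284 and 2539 CPM and Ifitm6 at 607 and 272 CPM, and the summed log2 ratio was -0.90 (-1.02 to -0.79), with -0.91 in H2-Aa-led members. MHC class II genes summed to 48930 and 62647 CPM (log2 ratio 0.36, 0.32 to 0.40), and the log2 ratio was 0.10 in H2-Aa-led members (0.05 to 0.14). Phagocyte oxidase and antioxidant genes had 2 of 10 past 2-fold lower, Txn1 and Prdx5, with a summed log2 ratio of -0.45. The migratory dendritic cell list went from 46 to 102 UMIs, 23 of the 102 from Il4i1, while the rule held its defining genes Fscn1, Ccr7 and Cacnb3 low.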

How the data were processed

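Splenocytes of 3 10x Genomics 5′ libraries were analysed. The authors deposited unnormalized UMI counts, a value per gene or hashtag and barcode. The file headers name Cell Ranger 6.0.0 and the submitters' processing notes name mm10. Of 32285 genes, 32158 matched GENCODE vM21 (GRCm38) by identifier. The study states its limits of 200 and 3500 as RNA counts, and they were read here as genes detected. Doublets were removed only through the hashtag rule, so doublets within 1 hashtag were not seen.

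The members and the 32 gene lists were chosen with earlier results of these data known. The division by H2-Aa and Lyz2, the sum of Ftl1 and Ftl1-ps1, the monocyte-type class (1 or more Ccr2 and fewer than 3 summed S100a8 and S100a9 UMIs) and a total without Gm42418 and AY036118 were chosen after the values were seen. Counts were summed over members of a library and scaled to counts per 1000000 UMIs (CPM). With 1 library per group no test was made. Shares carry Clopper-Pearson intervals, and ratios exact conditional ones. A side with 0 UMIs was set at 3 UMIs, a lower bound, and no ratio was given where both sides had 3 or fewer. Named genes were the 12 highest and 12 lowest log2 ratios per comparison among genes with 50 or more UMIs. Left out were immunoglobulin, T cell receptor, mitochondrial and rule genes, Xist, Tsix and Y-linked genes. Other X-linked genes, such as Cfp, were kept. Of genes set beside Clec4a4 cells the same number was taken, with 1 direction in all libraries. Genes that differ between H2-Aa-led and other members were ranked the same way after the values were seen. The remaining genes came from the lists, and some genes that these rules name are not reported here.

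The scripts used Python 3.11.15, numpy 2.4.6, scipy 1.17.1, pandas 2.3.3 and matplotlib 3.10.9, and edgeR 4.0.16 for TMM factors alone, and were tested on simulated data. Alternatives were other barcode and marker limits, thinning to 2000 UMIs, other minimum counts and totals, TMM factors, the mean per cell, members without Ly6c2 or with 2000 or more UMIs, and each hashtag left out.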

Additional observations from a re-analysis of the deposited data

How the results depend on the processing

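No paired analysis was possible because each group was 1 library. With the study's limits read as UMIs, the member percent of kept barcodes was 0.0719 for C57BL/6 control, 0 for C57BL/6 Ang II (0 of 9724, which allows up to 3 cells) and 0.166 for B6.SLE123, and the log2 ratio of member share, B6.SLE123 against control, was 1.21. With 1 or more marker UMIs the percent was 0.395, 0.279 and 0.423, with no Ly6c2 UMI 0.150, 0.114 and 0.126, and thinned to 2000 UMIs 0.396 for control and 0.423 for B6.SLE123. H2-Aa above Lyz2 gave 0.157 for control. No UMI of 7 B cell, T cell and neutrophil genes gave 0.0644 for Ang II, a log2 ratio of -1.59, and 0.160 for B6.SLE123. The number of genes past 2-fold in B6.SLE123 was 121 higher and 135 lower at 20 or more UMIs, where more genes are read, and 9 and 11 at 100 or more. It was 10 and 18 without Ly6c2 cells, 27 higher with 1 or more marker UMIs, and 13 lower with H2-Aa above Lyz2. With each hashtag left out the higher count ran from 11 (without C0303 of B6.SLE123) to 20. For Ang II it was 165 and 187 at 20 UMIs, 7 and 13 at 100, 9 and 19 without Ly6c2 cells, and 13 and 21 with H2-Aa above Lyz2. The higher count was 41 with 1 and 13 with 3 or more marker UMIs. The lower count ran from 24 (without C0305 of control or of Ang II, 27 without C0306 of Ang II) to 57. Apart from the minimum of UMIs, the cause was not tested. Of 1094 values of the 48 genes of the highest and lowest ratios under alternatives 3 reversed: Hp in B6.SLE123 with 1 or more marker UMIs, at 0.39, and in Ang II without Ly6c2 cells Txn1, at 0.36, and Cebpb, at 1.77. With every hashtag left out in turn 15 of 24 such genes in B6.SLE123 and 19 of 24 in Ang II stayed past 2-fold. With TMM factors all 24 in each did. Depth limits genes under about 50 UMIs, and the counts say nothing of variation between mice.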
